A study of Mus musculus with 22 samples.

Results

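The genes described here are Ticam1 and 9 others of Toll-like receptor signalling, Ticam2, Tlr3, Tlr4, Myd88, Traf3, Traf6, Ripk1, Tbk1 and Irf3, out of 37786 genes in the count table. Ticam1 was chosen by its higher counts in stimulated mice in these same libraries, so its difference between the groups is given as a description with no test. The other 9 were added as receptors, adaptors, kinases and a transcription factor of its pathway. All 10 had a row in the table, and all 10 passed the count minimum of at least 10 counts in at least 10 mice that 17524 genes passed.

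The study asked which transcripts of the anterior cingulate cortex (ACC) differ after repeated activation of the axons that reach it from the basolateral amygdala (BLA). All mice were wildtype adult C57BL/6J males that carried channelrhodopsin-2 fused to a yellow fluorescent protein in the BLA, from an AAV5 vector under the CaMKIIa promoter, and an optic fibre over the ACC. The 10 stimulated mice received 9 sessions of blue light, and the 12 control mice went through the same handling with the light off. The controls therefore share the virus, the opsin and the implant, and the promoter drives the opsin in CaMKIIa-expressing neurons around the injected BLA. RNA came from bulk tissue of 1 mouse per library, where fewer cells of a type and less RNA per cell cannot be told apart.

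The libraries fell into 2 runs of library numbers, 1 to 11 (6 controls, 4 stimulated) and 12 to 23 (6 controls, 6 stimulated), and the values below come from fits with the run as a term unless a single run or another fit is named. Total counts per mouse ranged from 23090483 to 43668462. Between the runs 68.1% of all genes passed an adjusted p of 0.05 (quasi-likelihood test in edgeR, Benjamini-Hochberg adjusted), against 0.0% between the groups, where the smallest adjusted p was 0.241. In the fit over both runs 10 of 10 oligodendrocyte markers were lower in stimulated mice at an unadjusted p under 0.05, at a median log2 difference of -0.69. At an adjusted p under 0.05 it was 0 of 10. Of all genes 11.5% had an unadjusted p under 0.05, 6.05% with higher and 5.45% with lower values in stimulated mice. The markers' summed level ranged from 3232 to 19856 CPM (counts per 1000000 counts of a library, TMM-scaled) in controls and from 2372 to 5847 CPM in stimulated mice, and controls 9 and 11 had the highest marker scores. The median log2 difference of the 10 markers was 0.04 within library numbers 1 to 11 and -1.31 within 12 to 23, and all 10 had an unadjusted p under 0.05 for the interaction of group and run (lowest adjusted p = 0.55, edgeR). Without controls 9 and 11, a choice made after seeing the data, 1 of 10 had an unadjusted p under 0.05 and the median was -0.10. An unadjusted p under 0.05 was found for 0 of 10 astrocyte, 0 of 6 border macrophage, 0 of 8 endothelial, 1 of 6 mural, 1 of 6 oligodendrocyte progenitor, 1 of 6 excitatory neuron and 2 of 6 inhibitory neuron markers. All 10 astrocyte markers had lower fitted values in stimulated mice, at a median log2 difference of -0.16, where 47.4% of all genes were lower.

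Toll-like receptors are membrane proteins that recognise microbial and damage-associated molecules and pass the signal on through adaptors that carry a TIR domain. Most of them use MyD88, while TLR3, an endosomal receptor for double-stranded RNA, uses TRIF, the protein that Ticam1 encodes. TLR4, the receptor for lipopolysaccharide at the cell surface, uses both, and reaches TRIF through the bridging adaptor TRAM, which Ticam2 encodes. TRIF recruits the ubiquitin ligases TRAF3 and TRAF6 and the kinase RIPK1. TRAF3 leads to the kinase TBK1 and the transcription factor IRF3, which drives type I interferon genes, while TRAF6 and RIPK1 lead to NF-kappaB. In brain tissue microglia are the cells best known for expressing these receptors, and astrocytes and neurons express some of them.

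Ticam1 (ENSMUSG00000047123) lies on the minus strand of chromosome 17, at 56269319 to 56276786 of GRCm38, and has 2 exons with 2992 exonic bases. The bases before its first annotated start are shown because Ticam1 is the gene around which this set was built. They are intergenic, at chr17:56276787-56277017 on the minus strand of GRCm38.p6, and come from the RefSeq promoter table, 5′ to 3′, with motif matches in capitals.
Ticam1 upstream: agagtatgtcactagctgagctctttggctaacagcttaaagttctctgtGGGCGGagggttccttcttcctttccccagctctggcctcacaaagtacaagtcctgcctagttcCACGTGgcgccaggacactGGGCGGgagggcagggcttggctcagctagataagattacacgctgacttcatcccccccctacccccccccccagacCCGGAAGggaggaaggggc
The 231 bases were 58.9% G or C. The capitals mark 2 GC boxes (GGGCGG), bound by SP1-family factors, 1 E-box (CACGTG) and 1 ETS site (CCGGAAG), none of which overlap each other. Of 32841 promoter windows of 300 bases searched on both strands, 35.7% held the GC box, 7.15% the E-box and 8.86% the ETS site. Windows were found for 8 of the 10 genes, other than Tlr4 and Ticam2, and all 8 held a GC box. The NF-kappaB core GGGANTTTC, present in 1.11% of all windows, was matched in the Tlr3 window, and the interferon-response core GAAANNGAA, present in 8.56%, in those of Myd88 and Ripk1. Neither was matched in the Ticam1 window, nor were the cAMP response element TGACGTCA (1.79% of windows) or the AP-1 site TGANTCA (7.81%) in any of the 8.

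Ticam1 ranged from 3.22 to 5.13 CPM in the 12 controls, with a median of 4.15 CPM. In the 10 stimulated mice it ranged from 4.10 to 6.32 CPM, with a median of 5.45 CPM. The groups overlapped: 6 of 10 stimulated mice lay above the highest control and 5 of 12 controls lay below the lowest stimulated mouse. The means were 4.13 ± 0.46 CPM (SD, n = 12) and 5.40 ± 0.64 CPM (SD, n = 10), and the log2 difference was 0.38 with an SE of 0.09, a fold of 1.30. These values chose the gene. They rest on 90 to 221 counts per mouse.

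Ticam1 was higher on average in the stimulated mice of both runs. In library numbers 1 to 11 the controls ranged from 3.78 to 4.26 CPM and the stimulated mice from 4.94 to 6.32 CPM, so that these 10 mice did not overlap. That was so for 1.29% of all genes, but these values are among those that chose Ticam1, so the share is no test of it. In library numbers 12 to 23 the controls ranged from 3.22 to 5.13 CPM, and 5 of 6 stimulated mice lay above the highest of them, the sixth being at 4.10 CPM. The log2 difference was 0.43 (SE 0.14) in the first run and 0.32 (SE 0.14) in the second. Their difference, which the choice of the gene did not use, was -0.06 on the log2 scale with a 95% interval from -0.42 to 0.30 (edgeR interaction test, unadjusted p = 0.747, adjusted p = 0.967). Leaving out each mouse in turn gave log2 differences of 0.34 to 0.42. With the oligodendrocyte marker score as a further term the log2 difference was 0.42 (SE 0.10), and without controls 9 and 11 it was 0.42 (SE 0.09).

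**Figure D1:**
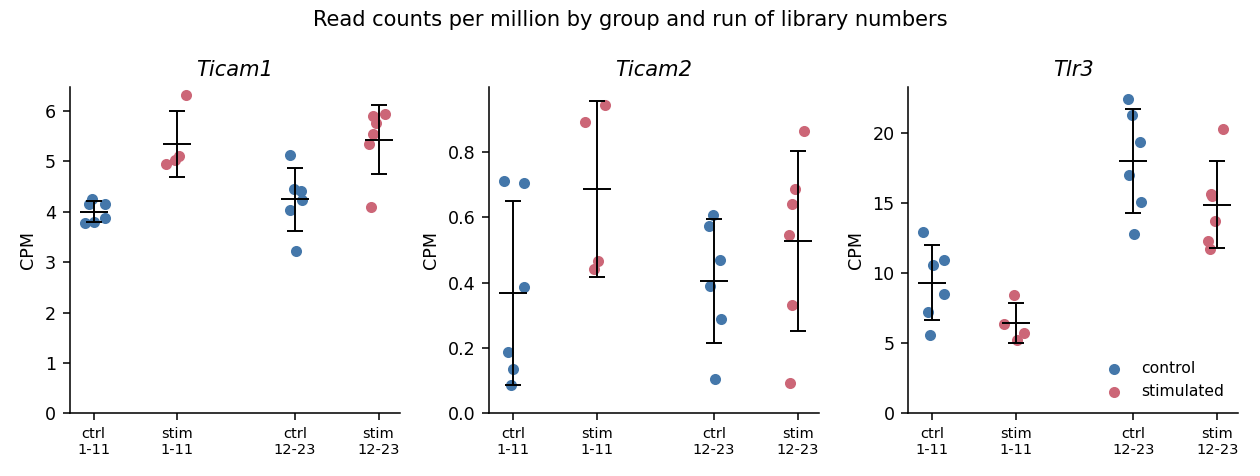
CPM (y axes from 0) of Ticam1, Ticam2 and Tlr3 in each mouse, by group and run of library numbers, with points for mice and bars for the mean and SD. Ticam1 reached 5.13 CPM in controls and 6.32 CPM in stimulated mice, and the mean of Tlr3 was higher in library numbers 12 to 23 than in 1 to 11 in both groups.

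Tlr3, the double-stranded RNA receptor that signals through TRIF, was the only 1 of the other 9 genes with an unadjusted p under 0.05 between the groups, and it was lower in stimulated mice. It ranged from 5.60 to 22.4 CPM in controls (median 12.9) and from 5.23 to 20.3 CPM in stimulated mice (median 12.0). These ranges overlapped almost fully over both runs. In library numbers 1 to 11 the controls ranged from 5.60 to 12.9 CPM and all 4 stimulated mice, at 5.23 to 8.45 CPM, lay below the control median of 9.55 CPM. In library numbers 12 to 23 the controls ranged from 12.8 to 22.4 CPM, and 5 of 6 stimulated mice, at 11.7 to 20.3 CPM, lay below the control median of 18.2 CPM. The log2 difference was -0.38 (SE 0.14, unadjusted p = 0.00905, adjusted p = 0.349, edgeR), a fold of 0.767, and so did not pass the threshold over all genes. An unadjusted p under 0.05 was found for 11.5% of all genes and, with lower values in stimulated mice, for 5.45%, and 1 of 9 genes is near these shares. The value was -0.51 (SE 0.22) in the first run and -0.31 (SE 0.16) in the second, and -0.35 (SE 0.14) without controls 9 and 11. It was -0.25 (SE 0.25, unadjusted p = 0.335) with group as the only term and -0.11 (SE 0.21, unadjusted p = 0.612) with the replicate number as a block. Neither of these 2 fits held a run term. In the block, replicates 5 and 6 set controls of library numbers 1 to 11 against stimulated mice of 12 to 23.

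Tlr4, the lipopolysaccharide receptor, was low. It ranged from 1.09 to 3.67 CPM in controls and from 0.595 to 4.99 CPM in stimulated mice, on 23 to 127 counts per mouse. Stimulated mice held both the lowest and the highest values. Its log2 difference was -0.07 (SE 0.21, unadjusted p = 0.734, adjusted p = 0.921, edgeR), with a 95% interval of the fold from 0.710 to 1.27.

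Ticam2, the bridging adaptor between TLR4 and TRIF, had the fewest counts, 2 to 37 per mouse, and 16 of 22 mice reached 10. It ranged from 0.0857 to 0.711 CPM in controls (median 0.388) and from 0.0911 to 0.943 CPM in stimulated mice (median 0.593), and 8 of 10 stimulated mice lay above the control median. The log2 difference of 0.63 was larger than that of Ticam1 but its SE was 0.35 (unadjusted p = 0.0871, adjusted p = 0.495, edgeR), so that the 95% interval of the fold ran from 0.957 to 2.49. Of its 5792 exonic bases, 838 are shared with Tmed7 on the same strand, a cargo receptor gene read at 159 ± 25.8 CPM in controls (SD, n = 12), so reads there cannot be assigned to 1 gene. Tmed7 itself had a log2 difference of -0.11 (SE 0.08, unadjusted p = 0.164).

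Myd88, the adaptor of most other Toll-like receptors, ranged from 5.06 to 9.40 CPM in controls and from 7.14 to 10.2 CPM in stimulated mice. Its medians were 8.17 and 8.23 CPM. In library numbers 1 to 11 all 4 stimulated mice lay below the control median, and in 12 to 23 5 of 6 lay above the highest control. The interaction of group and run was 0.25 (SE 0.18, unadjusted p = 0.176, adjusted p = 0.771, edgeR). Over both runs the log2 difference of Myd88 was 0.05 (SE 0.09, unadjusted p = 0.619, adjusted p = 0.872, edgeR), with a 95% interval of the fold from 0.911 to 1.17. Of its exonic bases, 290 are shared with Acaa1a on the opposite strand, which was read at 61.3 ± 8.65 CPM in controls (SD, n = 12).

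Traf3 and Traf6, the ubiquitin ligases of the interferon and NF-kappaB arms, had small group differences over both runs. Traf3 ranged from 29.6 to 138 CPM in controls (median 68.9) and from 33.6 to 119 CPM in stimulated mice (median 80.9). Traf6 ranged from 5.88 to 29.3 CPM in controls (median 15.2) and from 7.76 to 26.8 CPM in stimulated mice (median 20.7). Within each gene the wide range is that between the runs. The log2 differences were -0.15 (SE 0.12, unadjusted p = 0.218, adjusted p = 0.635, edgeR) for Traf3 and 0.07 (SE 0.11, unadjusted p = 0.51, adjusted p = 0.827) for Traf6.

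Traf6 was also the only 1 of the 10 genes whose group difference had an unadjusted p under 0.05 for a change between the runs. In library numbers 1 to 11 the 4 stimulated mice ranged from 7.76 to 12.8 CPM and 3 of them lay above the highest of 6 controls, at 9.11 CPM. In library numbers 12 to 23 the stimulated mice ranged from 20.4 to 26.8 CPM and 5 of 6 lay below the control median of 26.1 CPM. The log2 difference was 0.38 (SE 0.16) in the first run and -0.20 (SE 0.10) in the second. The interaction was -0.53 on the log2 scale (SE 0.19, unadjusted p = 0.00918, adjusted p = 0.558, edgeR), and it did not pass the threshold over all genes. An unadjusted p under 0.05 was found for 8.01% of all genes in this test and an adjusted p under 0.05 for 0.0%.

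Ripk1, the kinase that TRIF also recruits, ranged from 4.00 to 11.6 CPM in controls and from 5.23 to 9.83 CPM in stimulated mice. Its log2 difference was -0.03 (SE 0.12, unadjusted p = 0.796, adjusted p = 0.941, edgeR). Tbk1, the kinase that phosphorylates IRF3, ranged from 54.8 to 87.3 CPM in controls and from 56.6 to 91.9 CPM in stimulated mice. Its log2 difference was 0.07 (SE 0.07, unadjusted p = 0.364, adjusted p = 0.739), with a 95% interval of the fold from 0.948 to 1.16. For both genes the medians of the groups lay well inside the range of the other group.

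Irf3, the transcription factor at the end of the TRIF arm, ranged from 14.0 to 24.2 CPM in controls (median 18.3) and from 11.1 to 23.6 CPM in stimulated mice (median 15.7). In library numbers 12 to 23 all 6 stimulated mice lay below the control median of 16.7 CPM, while in 1 to 11 it was 2 of 4. The log2 difference was -0.15 (SE 0.09, unadjusted p = 0.09, adjusted p = 0.5, edgeR). It was -0.05 (SE 0.12) in the first run and -0.26 (SE 0.12) in the second, -0.06 (SE 0.08) with the oligodendrocyte marker score as a further term and -0.09 (SE 0.09) without controls 9 and 11. Irf3 shares 88 exonic bases with Bcl2l12 on the opposite strand, at 0.717 ± 0.246 CPM in controls (SD, n = 12), and Ripk1 shares 241 with Serpinb6a on the opposite strand, at 42.4 ± 8.65 CPM. Ripk1 also shares 511 exonic bases with the pseudogene Gm17084 on the same strand, which was not analysed here, and Tlr3 shares 381 with the antisense gene Gm45542, which had 2 counts over all 22 mice. Serpinb6a had a log2 difference of 0.15 between the groups (SE 0.06, unadjusted p = 0.015, adjusted p = 0.354).

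**Figure D2:**
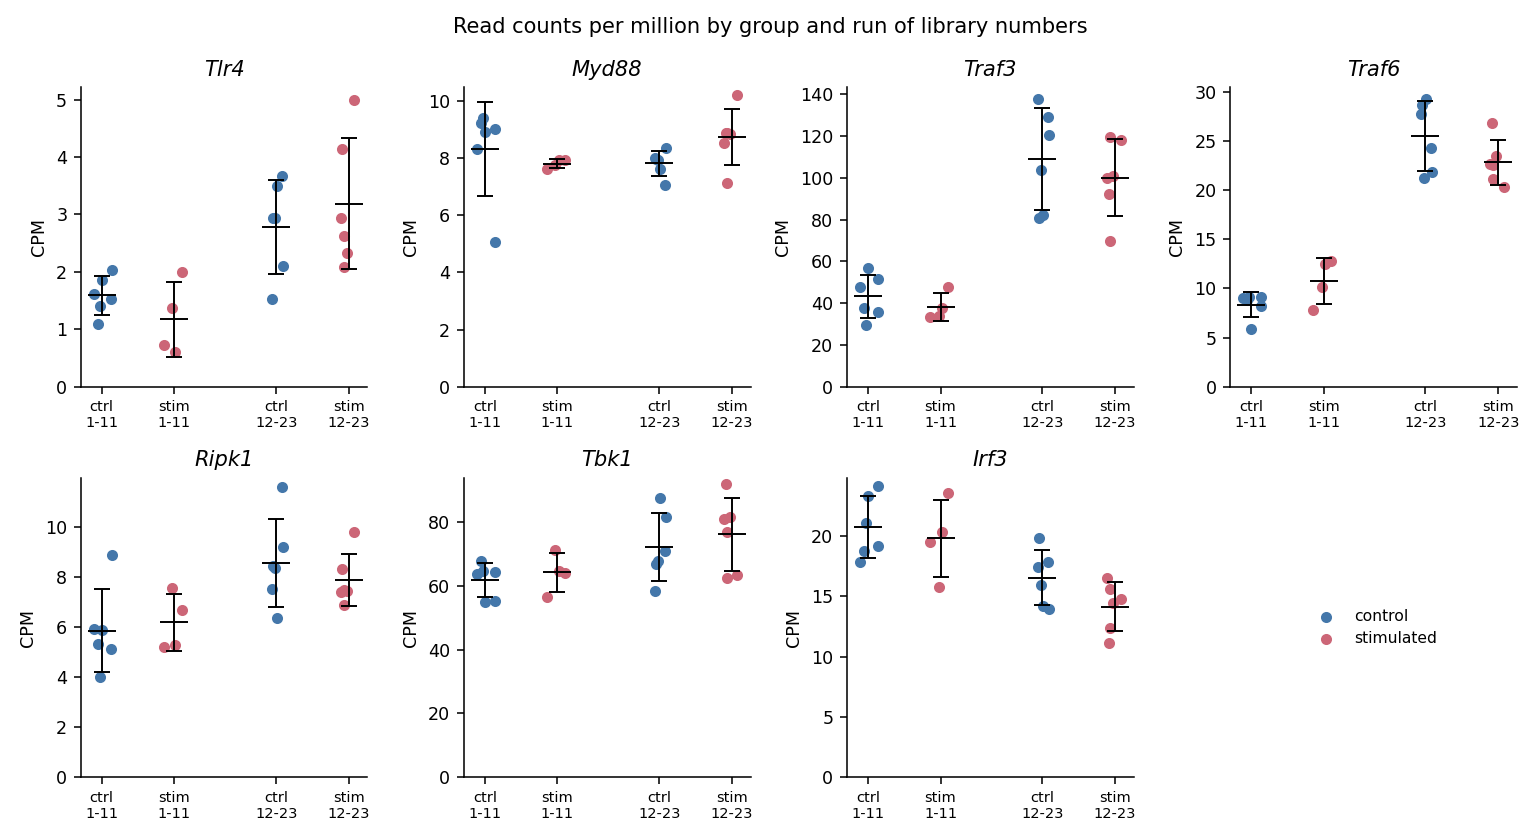
CPM (y axes from 0) of the other 7 genes in each mouse, by group and run of library numbers, with points for mice and bars for the mean and SD. Traf3 and Traf6 show no overlap between the runs, Irf3 is lower in library numbers 12 to 23, and the groups overlap in every panel over both runs.

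Between the runs 7 of the 10 genes passed an adjusted p of 0.05, which is near the share of all genes, 68.1%. Of these 7, 6 were higher in library numbers 12 to 23. Traf6 was 1.37 higher on the log2 scale (SE 0.11, adjusted p = 2.86e-11, edgeR) and Traf3 1.36 higher (SE 0.12, adjusted p = 2.54e-10). Mice of the 2 runs did not overlap for these 2 genes, as for 26.1% of all genes. The receptors followed, with 1.08 for Tlr4 (SE 0.22, adjusted p = 9.84e-05) and 1.06 for Tlr3 (SE 0.14, adjusted p = 1.77e-07). Ripk1 was 0.46 higher (SE 0.12, adjusted p = 0.00169) and Tbk1 0.23 higher (SE 0.07, adjusted p = 0.00787), whereas Irf3 was lower, at -0.39 (SE 0.09, adjusted p = 0.000253). The absolute differences of Ripk1, Tbk1 and Irf3 lay below the median of all genes, 0.48.

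The 3 TIR-domain adaptors did not pass the threshold between the runs. Ticam1 had a log2 difference of 0.06 (SE 0.09, adjusted p = 0.583, edgeR), Myd88 of 0.02 (SE 0.09, adjusted p = 0.838) and Ticam2 of -0.10 (SE 0.35, adjusted p = 0.808). For Ticam1 the 95% interval ran from -0.12 to 0.23, and 6.36% of all genes had a smaller absolute difference. The median absolute difference over all genes was 0.48 between the runs and 0.10 between the groups. For Ticam2 the interval, -0.80 to 0.59, leaves room for differences as large as that median.

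**Figure D3:**
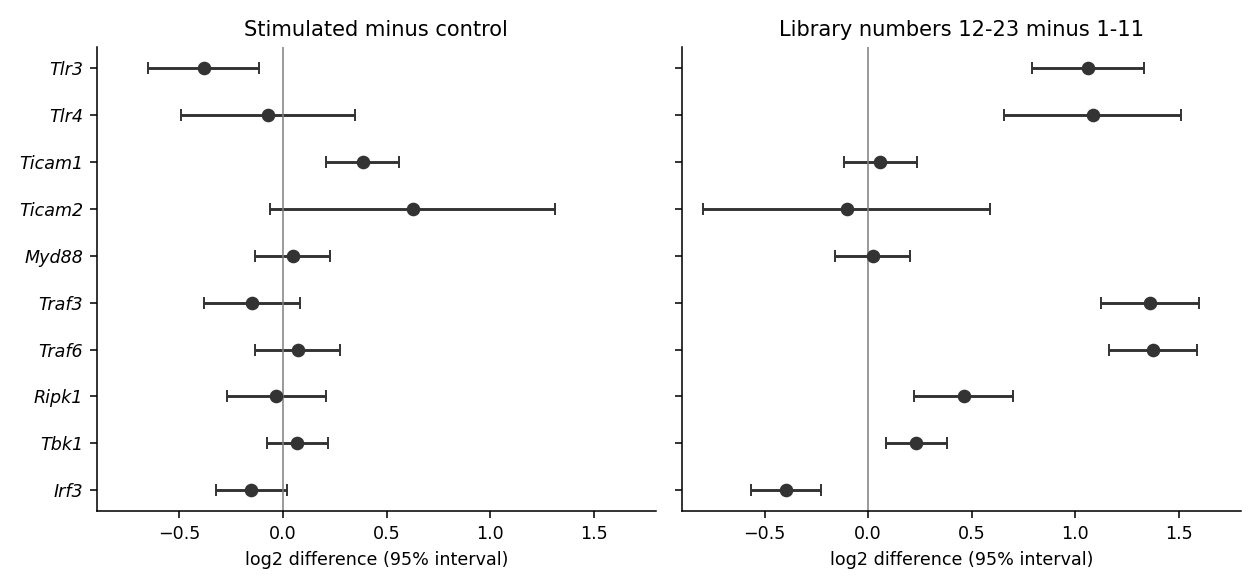
Log2 differences of the 10 genes (x axes, with 95% intervals from the SE) between stimulated and control mice on the left and between library numbers 12 to 23 and 1 to 11 on the right. Ticam1 lies at 0.38 on the left and at 0.06 on the right. Its value on the left chose the gene, so that value and its interval are a description and no test. Traf3 and Traf6 lie near 0 on the left and above 1.3 on the right.

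Per exonic length, the kinase Tbk1 was the most abundant of the genes, at 17.6 ± 2.64 CPM per exonic kb (SD, n = 22), and Ticam2 the least, at 0.0828 ± 0.0456. Traf3 followed Tbk1 at 10.3 ± 4.92 and Irf3 at 5.12 ± 1.04. Myd88 stood at 3.19 ± 0.40, Tlr3 at 2.43 ± 1.01 and Traf6 at 2.21 ± 1.02. Ticam1 came next at 1.57 ± 0.28, before Ripk1 at 0.866 ± 0.215 and Tlr4 at 0.409 ± 0.20. With these exonic lengths the order held across mice from Ticam1 downward: Ticam1 exceeded Ripk1 in 22 of 22 mice, Ripk1 exceeded Tlr4 in 22 and Tlr4 exceeded Ticam2 in 21. Agreement across mice does not test the lengths. Before division by length, Ripk1 had a higher mean than Ticam1, at 7.23 against 4.70 CPM. Above Ticam1, Irf3 exceeded Myd88 in 21 of 22 mice and Tbk1 exceeded Traf3 in 20, while 2 pairs of neighbours turned with the run. Traf6 exceeded Ticam1 in 12 of 12 mice of library numbers 12 to 23 and in 0 of 10 mice of 1 to 11, and Traf3 exceeded Irf3 in 12 and 3 of them, respectively. Among neighbours in the order, the mean and SD ranges overlapped for Tbk1 and Traf3, Traf3 and Irf3, Myd88 and Tlr3, Tlr3 and Traf6, and Traf6 and Ticam1.

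**Figure D4:**
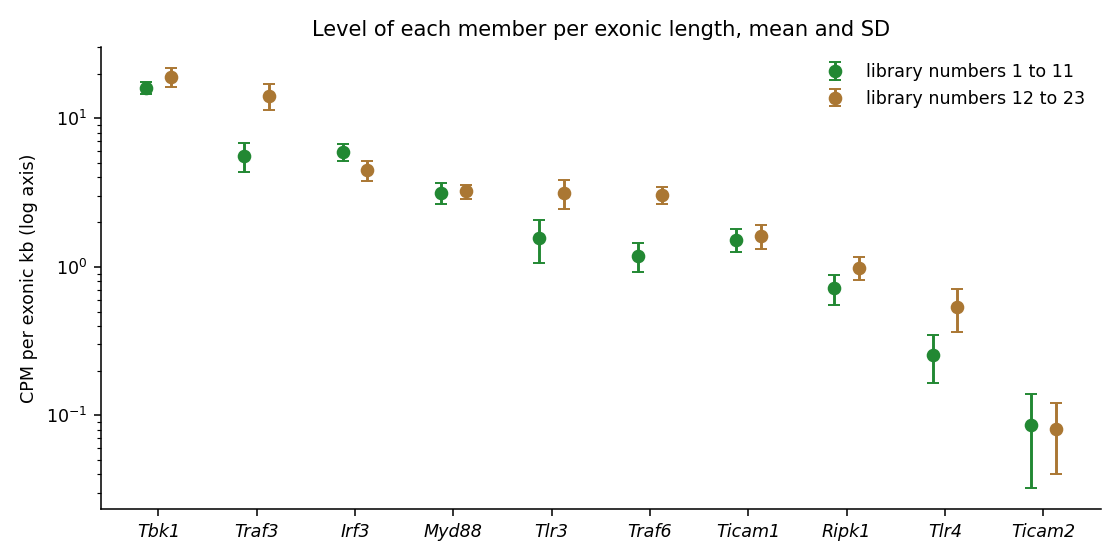
Mean and SD of the level of each gene in CPM per exonic kb (y axis, log scale), for the 10 mice of library numbers 1 to 11 and the 12 mice of 12 to 23. The genes run from Tbk1, at 17.6 over all mice, to Ticam2, at 0.0828, and the 2 runs part most for Traf3 and Traf6.

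The wider pathway was read through 9 lists with 104 genes in all. Of these 91 passed the count minimum, and 6 had an unadjusted p under 0.05 between the groups, 3 higher and 3 lower in stimulated mice. That is 6.59% of them, beside 11.5% of all genes (6.05% higher and 5.45% lower), and none passed the adjusted threshold. The median log2 difference of the 91 was -0.01 and that of all genes 0.01. The genes higher in stimulated mice were Birc3, an inhibitor-of-apoptosis ubiquitin ligase of the NF-kappaB arm (log2 difference 0.38, SE 0.15, adjusted p = 0.363, edgeR), Tmem173, which encodes the DNA-sensing adaptor STING (0.21, SE 0.10, adjusted p = 0.426), and Cnpy3, a chaperone of Toll-like receptors (0.17, SE 0.06, adjusted p = 0.349). Those lower were Nfkbiz, an inducible NF-kappaB regulator (-0.41, SE 0.17, adjusted p = 0.369), and Chuk and Ikbkb, the IKK kinases (-0.31, SE 0.13, adjusted p = 0.385, and -0.13, SE 0.06, adjusted p = 0.379).

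By role, 0 of 7 tested other Toll-like receptors, 0 of 12 genes of the MyD88 branch, 0 of 6 of the TBK1 and IRF branch and 0 of 15 inhibitors had an unadjusted p under 0.05. The counts were 1 of 10 for co-receptors and chaperones, 2 of 11 for IKK and NF-kappaB, 1 of 9 for the RIPK1 and cell death branch and 1 of 8 for other nucleic acid sensing. Genes that this signalling is known to induce, such as interferon-stimulated genes, cytokines and chemokines, gave 1 of 13, which was Nfkbiz. Of the 13, 10 had lower fitted values in stimulated mice, where 47.4% of all genes did, and 12 of the 13 did not reach an unadjusted p under 0.05. The other 9 induced genes in the table did not pass the count minimum, among them Tnf, Il6 and Cxcl2. Tnf had 0 counts in 10 of 22 mice and at most 8, Il6 had 0 in 5 mice and at most 7, and Cxcl2 had 0 in 19 mice. Ifit1 was read at 5.46 CPM in controls and 5.16 CPM in stimulated mice on average, Isg15 at 1.89 and 1.58 CPM, and Ifit2 at 12.1 and 12.5 CPM. Ifnb1 was not analysed here.

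The tissue held microglial RNA in every mouse. The summed level of 15 microglia markers ranged from 765 to 1305 CPM in controls and from 749 to 1191 CPM in stimulated mice, and 0 of 15 had an unadjusted p under 0.05. Fitted values were higher in stimulated mice for 12 of the 15, at a median log2 difference of 0.08. Of 7 blood leukocyte markers 1, Ccr2, passed the count minimum, and the neutrophil markers S100a8 and Ngp had 0 counts in 6 and 11 of 22 mice. Within library numbers 12 to 23, Ticam2 followed the microglia marker score, the mean centred log2 CPM of these markers, with Pearson's r = 0.78 (permutation p = 0.00229, adjusted p = 0.0458) and Spearman's rho = 0.80 (permutation p = 0.00306, adjusted p = 0.0612, n = 12). Without the 2 mice farthest from the median score r was 0.76. Within library numbers 1 to 11 its r was 0.10 (permutation p = 0.786, adjusted p = 0.831) and rho 0.02 (permutation p = 0.973, adjusted p = 0.973, n = 10), so the relation did not hold in both runs.

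For Ticam1 r was 0.60 in library numbers 12 to 23 (permutation p = 0.0385, adjusted p = 0.154) with a rho of 0.66 (permutation p = 0.0242, adjusted p = 0.0806, n = 12), and 0.51 without the 2 farthest mice. In library numbers 1 to 11 r was 0.10 (permutation p = 0.789, adjusted p = 0.831) and rho -0.08 (permutation p = 0.84, adjusted p = 0.933, n = 10), and r turned to -0.35 without the 2 farthest mice. For Traf3 r was 0.71 (permutation p = 0.0228, adjusted p = 0.119) and rho 0.73 (permutation p = 0.0198, adjusted p = 0.0806, n = 10) in library numbers 1 to 11, with an r of 0.94 without the 2 farthest mice. In library numbers 12 to 23 its r was 0.72 (permutation p = 0.00955, adjusted p = 0.0955) and its rho 0.76 (permutation p = 0.00627, adjusted p = 0.0627, n = 12), with an r of 0.70 without them. Tbk1 went the other way, with r = -0.54 in library numbers 1 to 11 (permutation p = 0.11, adjusted p = 0.245) and -0.65 in 12 to 23 (permutation p = 0.0239, adjusted p = 0.1195). For Ripk1 rho was 0.78 in 1 to 11 (permutation p = 0.0105, adjusted p = 0.0697) and 0.11 in 12 to 23. Adjusted values are over the 20 relations of 10 genes in 2 runs, and all permutation tests were two-sided. By r only the relation of Ticam2 in library numbers 12 to 23 passed 0.05 after adjustment, and by rho none did. The part of microglial content in the group differences was not tested.

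**Figure D5:**
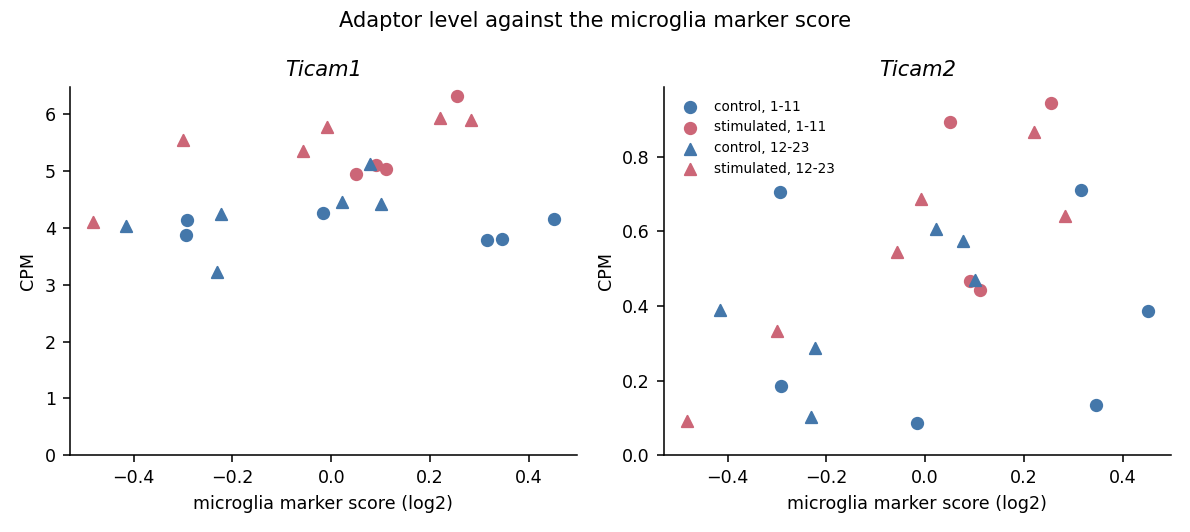
CPM (y axes from 0) of Ticam1 and Ticam2 in each mouse against the microglia marker score (x axes, log2), with colour for the group and circles or triangles for library numbers 1 to 11 or 12 to 23. The triangles of Ticam2 climb with the score (r = 0.78), and its circles do not (r = 0.10).

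Among the other 9 genes, Ticam2 was most like Ticam1 over the 22 mice. With log2 CPM centred within each run, their Pearson's r was 0.62, above that of 99.4% of all genes, and after centring within run and group it was 0.59, above 97.8%. Tbk1 stood at the other end after centring within run and group, with r = -0.60. Over all genes the highest r with Ticam1 within runs belonged to Zfand2b (0.89), Samd1 (0.79), Gm14057 (0.75), Scx (0.74) and Slc39a11 (0.74). Within runs and groups they were 9130002K18Rik (0.81), Zfand2b (0.77), Gm26703 (0.76), Gm6055 (0.76) and Higd1b (0.76), so that only Zfand2b was in both. The first of these centrings keeps the group difference that chose Ticam1, and all values share libraries and depth.

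Of the genes within 50 kb of Ticam1, 0 of 5 tested had an unadjusted p under 0.05 between the groups. Plin3, which encodes a lipid droplet protein and lies 690 bases away, had a log2 difference of -0.20 between the groups (SE 0.12, unadjusted p = 0.115, adjusted p = 0.529, edgeR). Fem1a, 5.71 kb away, had 0.04 (SE 0.06, adjusted p = 0.805), Uhrf1 at 26.5 kb had -0.22 (SE 0.35, adjusted p = 0.839), Kdm4b at 49.3 kb had 0.04 (SE 0.06, adjusted p = 0.823) and the noncoding AC026385.1 at 26.5 kb had 0.07 (SE 0.15, adjusted p = 0.896). The other 3 genes within 50 kb, Arrdc5, Mir7b and AC026385.2, had 1 to 13 counts over all 22 mice and were not tested.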

How the data were processed

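Gene expression was measured in bulk ACC of 22 mice with a full-length cDNA kit and single-end reads. The authors' counts came from reads trimmed in cutadapt 1.10 and placed on mm10 by STAR 2.5.3a, of which htseq-count 0.6.1p1 kept the uniquely placed ones. Whether strand was used is not given in the sources used here. The authors deposited whole-number counts per mouse, which were the values tested, next to size-factor-normalized counts (a signal) and their own DESeq2 1.22.1 columns (log2 fold changes, p-values), neither of which was used.

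Counts were fitted with edgeR 4.0.16 in R 4.3.3 (TMM, glmQLFit, glmQLFTest, run and group as terms) over the 17524 genes that reached 10 counts in 10 or more mice, and p-values were adjusted by Benjamini-Hochberg. The study used batch and RNA integrity as covariates. The labels give neither, so the run of library numbers stood in for batch and integrity was left out. Group, replicate and library number were taken from the labels. CPM are TMM-scaled. Intervals of 95% are normal intervals from the SE. Coordinates and exonic lengths are from GENCODE M21 on GRCm38, where 37772 of 37786 identifiers matched. No 2 libraries agreed within sampling noise (smallest mean chi-square per gene 10.1 over 231 pairs). Where nothing states separate origin, p-values measure the spread between these samples.

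Members, lists, covariates and tests were chosen with earlier results of these data known. Named genes were the members, pathway genes with an unadjusted p under 0.05 (at most 10), the 5 genes most correlated with Ticam1 under each centring, genes sharing exons with a member and genes within 50 kb of Ticam1. Marker genes, and examples of induced genes, are named outside this rule and were chosen after their values were seen. A gene past the adjusted threshold in some alternatives is not reported here. Correlations used 100000 permutations. Alternatives used DESeq2 1.42.0, limma 3.58.1 and sva 3.50.0. The edgeR fit with run and group, with either scaling, and the DESeq2 and limma fits were tested on simulated counts with known changes. In the simulation kept here DESeq2's Wald test made more false calls than its nominal rate while those of edgeR and limma stayed under it. Repeats with other seeds, whose values were not kept, ran from about the nominal rate upward for DESeq2. The limit it failed had first been set for all fits and was afterwards applied to the others only, and the cause of the excess was not settled.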

Additional observations from a re-analysis of the deposited data

Results flagged for a closer look

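Of 50 combinations of a gene and a group of 4 to 10 mice, 4 held a mouse that stood apart from the rest of its group by Dixon's criterion, where chance would give 2.5. Ticam1 was at 6.32 CPM in stimulated mouse 1, the next of its 4-mouse group (library numbers 1 to 11) being at 5.10 CPM. Ticam1 was at 4.10 CPM in stimulated mouse 7, the next lowest of its 6-mouse group (library numbers 12 to 23) being at 5.35 CPM. Myd88 was at 5.06 CPM in control 4 and Traf6 at 5.88 CPM in control 1, against next lowest values of 8.33 and 8.17 CPM among the 6 controls of library numbers 1 to 11.

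The interaction of group and run for Traf6 was -0.53 on the log2 scale, with an unadjusted p under 0.05 only (edgeR, unadjusted p = 0.00918, adjusted p = 0.558). It was 1 of 10 genes, where 8.01% of all genes had such a p, and 0 of 10 passed the adjusted threshold. Leaving out each mouse in turn, chosen after seeing the data, gave -0.66 to -0.44 with unadjusted p from 0.0011 to 0.0327.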

How the results depend on the processing

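The Ticam1 log2 difference of 0.38 was 0.32 to 0.43 under 12 other settings, with 0.43 under the replicate block, and 0.34 to 0.42 with each mouse left out in turn. Tlr3, at -0.38, kept its direction but lost its unadjusted p under 0.05 with group only (-0.25, p = 0.335), under the replicate block (-0.11, p = 0.612) and within library numbers 12 to 23 (-0.31, p = 0.0643). With each mouse left out in turn, a setting chosen after seeing the data, it was -0.45 to -0.33. No member other than Ticam1, which was not tested, passed the adjusted threshold under any of these settings. Directions that turned were those of Tlr4 (0.12 with group only and 0.16 within library numbers 12 to 23), Myd88 (-0.079 within 1 to 11), Traf6 (-0.20 within 12 to 23), Ripk1 (0.10 within 1 to 11, 0.070 under the replicate block and 0.0031 with 1 surrogate variable), Traf3 (0.15 under the replicate block) and Tbk1 (-0.0044 with the oligodendrocyte marker score, chosen after seeing the data). Genes past the adjusted threshold numbered 0 with edgeR (2015 at an unadjusted p under 0.05), 33 with DESeq2, 1 with limma voom and 1 without controls 9 and 11 (edgeR). DESeq2 exceeded its nominal rate of false calls in the simulation kept here, while repeats with other seeds ran from about that rate upward. Genes with an unadjusted p under 0.05 numbered 632 with group only, 3687 with no count minimum (37571 genes tested), 1291 under the replicate block and 974 within 1 to 11. Members under 0.05, against 1 (Tlr3), numbered 0 with group only, 2 under the replicate block (Ticam2 and Irf3), 2 each with the surrogate variable and with the oligodendrocyte score (Tlr3 and Ticam2) and 2 within 1 to 11 (Tlr3 and Traf6), while the 1 within 12 to 23 was Irf3. Pathway genes under 0.05 numbered 2 with group only, 10 with limma voom, 3 within 12 to 23 and 3 without controls 9 and 11, against 6. The share of all genes under 0.05, against 11.5%, was 3.61% with group only, 15.9% with limma voom and with the surrogate variable, 7.37% under the replicate block, 5.56% within 1 to 11, 12.4% within 12 to 23, 7.73% with the oligodendrocyte score and 8.16% without controls 9 and 11. The replicate block held no run term and left out controls 11 and 12. Its replicates 5 and 6 set controls of library numbers 1 to 11 against stimulated mice of 12 to 23. Run differences therefore remained in that fit. The cause of the changes between settings was not tested. Same-numbered mice of the 2 groups did not pair: their deviations from run and group means correlated at 0.03 on average and above 0.1 in 3 of 10 pairs. Depth limits Ticam2 most, with 2 to 37 counts per mouse.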
